A study of Mus musculus with 9 samples.

Results

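Solute carriers are the membrane proteins that move amino acids, sugars, ions, metals, vitamins and metabolites into and out of cells and organelles. The 140 genes described here are solute carrier genes with a mean array value at or above a set level in cells sorted as mouse microglia. They were taken from 364 solute carrier genes, among 19938 genes in all, that had a probe set annotated to 1 symbol. The choice was by name, as symbols that start with Slc and a number. It was also by level, as a mean log2 value of at least 6 over all 9 arrays. That level was not checked against background, so a place in the set does not show that microglia express the gene. A gene with more than 1 probe set was represented by the one with the highest mean. Slc39a12, Slc1a2, Slc1a3, Slc2a1, Slc16a1, Slc16a3, Slc40a1, Slc11a1 and Slc11a2 were left out. The level was therefore fixed by the choice. The rule did not use the differences between genotypes, but it was set with earlier results of these data known. Just inside the level lay Slc25a20 at 6.01, Slc22a13 at 6.02 and Slc66a2 at 6.04, and just outside it lay Slc12a7 at 5.99, Slc22a5 at 5.96 and Slc9a3r2 at 5.93. By its usual substrate or place in the cell each gene was put in 1 of 8 classes: 26 for amino acids and peptides, 8 for sugars, 17 for nucleotide sugars and other Golgi or endoplasmic reticulum substrates, 24 mitochondrial carriers, 16 for inorganic ions, 23 for metals, 12 for vitamins, nucleosides, choline and haem, and 14 for monocarboxylates, organic ions and fatty acids. The symbol does not make a transporter of 3 of them, the scaffold Slc9a3r1, the adaptor Slc4a1ap and Slc7a6os, which overlaps Slc7a6 by name.

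The cells were labelled as microglia, the macrophages that live in brain tissue. They were taken by a CD45+ CD11b+ sort of dissociated brains from 9 mice aged 8.5 months, and 1 array was run for each mouse. The highest mean level of a neutrophil marker was 10.98, so a value given here need not come from microglia alone. Every mouse carried 5XFAD, human transgenes whose products make amyloid build up, and every mouse lacked murine TREM2, a lipid-sensing receptor of microglia. On that background the R47H group (3 mice) expressed the R47H variant of human TREM2, which is linked to a raised risk of Alzheimer's disease, the CV group (3 mice) expressed its common variant, and the KO group (3 mice) expressed no human TREM2. Mouse 1 of each group was female and mice 2 and 3 were male. How the human gene was introduced and where it was driven are not given in the labels used here, and no group had murine TREM2. The comparisons ask whether transporter transcripts in cells sorted from these brains differ with either human variant, and whether R47H and the common variant differ. The sort did not select cells by their distance to amyloid.

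Microglia take up amino acids through heterodimeric exchangers and sodium-coupled carriers, and they are known among brain cells for the fructose transporter Slc2a5. Lysosomes of a phagocyte depend on their own carriers to release the amino acids, nucleosides and haem that digestion sets free. Mitochondrial carriers of the Slc25 family pass nucleotides, phosphate and metabolites across the inner membrane, and some are set by calcium or by the need for nucleotides.

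Array medians lay between 5.28 and 5.35, and the correlation between any 2 arrays was 0.970 to 0.990. The mouse Trem2 probe set read 7.26 to 7.31 in R47H, 7.05 to 7.21 in CV and 7.10 to 7.19 in KO mice. All groups lacked murine TREM2, so this probe set does not check the group labels. The 5 microglial markers tested had mean levels of 11.1 to 12.3, and neuronal and pericyte markers had mean levels at or below 5.20. Of these 5 microglial markers 0 had a positive difference in CV minus KO (median -0.20) and 1 in R47H minus KO (median -0.05). All 5 were higher in R47H than in CV (median 0.16), and 0 were called in any comparison. Markers of other cells differed between the groups. The 9 oligodendrocyte markers with a probe set had summed log2 levels of 61.1 to 64.3 in R47H, 50.7 to 53.5 in CV and 50.8 to 57.1 in KO mice, and 7 of the 7 tested were higher in R47H than in CV, 5 of them called. The 10 astrocyte markers summed to 58.0 to 60.8 in R47H, 51.8 to 53.6 in CV and 52.3 to 56.3 in KO mice. The 13 neutrophil markers summed to 77.0 to 89.4 in R47H, 102 to 113 in CV and 69.5 to 112 in KO mice, with KO mouse 3 at the top of its group and KO mice 1 and 2 at 69.5 and 74.7. The 7 monocyte markers with a probe set summed to 41.4 to 43.3 in R47H, 46.9 to 50.9 in CV and 40.9 to 49.5 in KO mice. Of 5 border-associated macrophage markers 0 had a positive difference in CV minus KO (median -0.29). All 5 were higher in R47H than in CV (median 0.38), 1 of them called. On this array's log2 scale 0 of these markers stood at 0. In bulk samples, fewer cells of a type and less RNA per cell cannot be told apart.

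**Figure D1:**
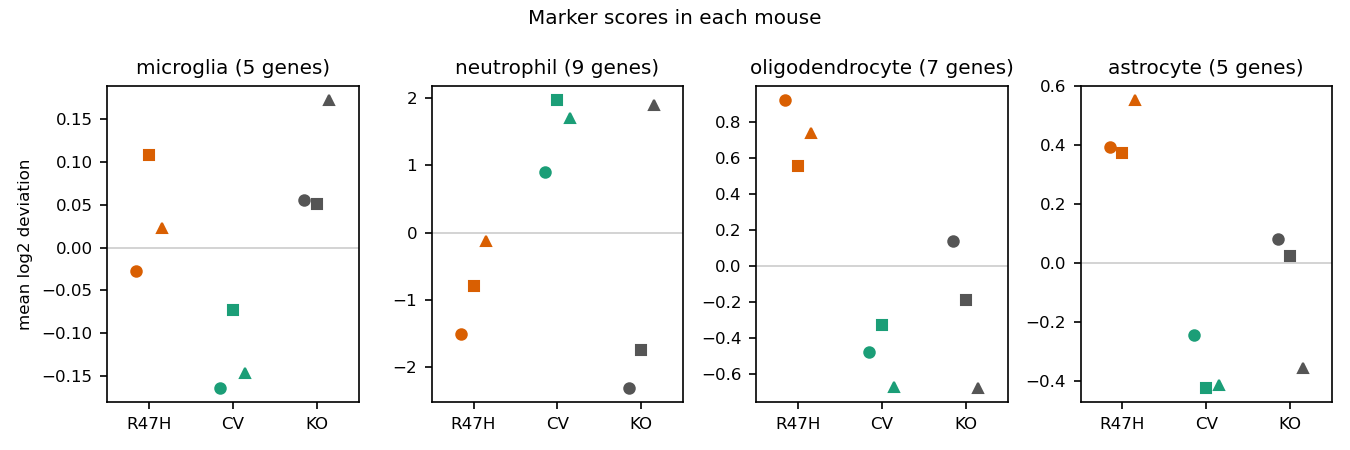
Marker scores of 4 cell types in each mouse, as the mean over tested markers of the log2 deviation from the mean of 9 mice (vertical axis), for R47H, CV and KO mice (circle: mouse 1, female, square and triangle: males). The 3 R47H mice have the highest oligodendrocyte and astrocyte scores, the 3 CV mice the lowest microglial scores, and KO mouse 3 lies near the CV mice in its neutrophil score of 1.89.

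Slc25a25, a mitochondrial carrier that exchanges magnesium-ATP for phosphate and is activated by calcium, was the 1 of the 140 genes that differed past the threshold. Its log2 level was 7.06, 6.9999 and 7.11 in R47H mice, 7.61, 7.49 and 7.59 in CV mice, and 7.36, 7.18 and 7.42 in KO mice. All R47H mice lay below all KO mice, which lay below all CV mice. R47H minus CV was -0.51 ± 0.08 (SE), a level 1.42-fold lower in R47H (limma, Benjamini-Hochberg adjusted p = 0.0346 over 10795 genes), and the F-test of any genotype difference gave an adjusted p = 0.0469. R47H minus KO was -0.26 ± 0.08 (adjusted p = 0.598) and CV minus KO was 0.25 ± 0.08 (adjusted p = 0.247), so neither single difference from KO passed. These last comparisons share the KO mice. The R47H minus CV difference was between -0.54 and -0.48 without any 1 mouse, but its adjusted p was 0.0597 without KO mouse 1 and 0.0934 to 0.178 without any 1 R47H or CV mouse. It was -0.37 (adjusted p = 0.607) with the neutrophil score as a covariate and -0.21 (adjusted p = 1) with the mean of the oligodendrocyte and astrocyte scores, which separates R47H from CV by itself.

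The 250 bases before each annotated start of Slc25a25 are shown because it was the called gene and its starts differ in sequence. RefSeq (GRCm38.p6) gives 3 starts on the minus strand of chromosome 2, and the windows are written 5′ to 3′ on that strand. Capitals mark TGACGTCA, the full cAMP response element, which reads the same on both strands.
Slc25a25 at chr2:32451471-32451720: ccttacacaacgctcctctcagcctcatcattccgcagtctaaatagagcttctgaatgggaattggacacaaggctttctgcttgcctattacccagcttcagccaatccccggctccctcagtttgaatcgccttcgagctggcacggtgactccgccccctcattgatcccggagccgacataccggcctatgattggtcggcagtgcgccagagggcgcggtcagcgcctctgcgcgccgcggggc
Slc25a25 at chr2:32431152-32431401: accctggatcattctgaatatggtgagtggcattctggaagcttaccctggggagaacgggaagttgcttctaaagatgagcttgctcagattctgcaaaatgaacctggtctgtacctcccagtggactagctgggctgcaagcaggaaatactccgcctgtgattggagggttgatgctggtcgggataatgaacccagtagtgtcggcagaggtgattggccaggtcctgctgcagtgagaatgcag
Slc25a25 at chr2:32424067-32424316: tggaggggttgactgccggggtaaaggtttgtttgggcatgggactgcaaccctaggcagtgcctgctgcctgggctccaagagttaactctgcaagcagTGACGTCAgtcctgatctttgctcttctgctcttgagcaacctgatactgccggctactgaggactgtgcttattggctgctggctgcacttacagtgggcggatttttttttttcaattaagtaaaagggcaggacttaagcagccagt
The element stood in 1 of these 3 windows, with its first base 150 bases before the start. RefSeq promoters were found for 110 of the 140 genes, in 147 windows, of which 3 (2.04%) held TGACGTCA, against 1.55% of the 32851 windows of all genes. The other genes were Slc25a36, a pyrimidine nucleotide carrier, and Slc38a6 of the amino acid class. The windows of all genes were not filtered by level, as the 140 genes were. Letters that match in a window are a description and not a site.

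Across the whole set, levels differed little between the genotypes. In R47H minus KO 0 of the 140 genes were called by limma, beside 9 of 10795 genes (0.0834%), and 4 were higher and 6 lower at an unadjusted p under 0.05 (3.53% and 2.15% of all genes were). These few counts did not keep their balance: they were 7 higher and 4 lower with the replicate block, 8 and 6 without KO mouse 2, and 5 and 3 without KO mouse 1. Without R47H mouse 3 they were 2 and 3, and without CV mouse 2 they were 4 and 3. In CV minus KO 0 of the 140 were called, beside 131 of all genes (1.21%). In R47H minus CV 1 was called, Slc25a25, beside 86 of all genes (0.797%). By the F-test of any genotype difference 1 of the 140 was called, beside 1.32% of all genes, and 24 (17.1%) had an unadjusted p under 0.05, against 12% of all genes. The median difference was -0.02 in R47H minus KO, -0.04 in CV minus KO and 0.02 in R47H minus CV, beside -0.0011, -0.016 and 0.010 over all tested genes. The 95% interval of the difference stayed within a 1.5-fold change either way for 135, 132 and 128 of the 140 genes, so larger differences are outside the interval for most of them.

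The count of genes below the KO level was larger in CV. At an unadjusted p under 0.05 limma gave 21 of 140 genes lower in CV than in KO (15%) and 8 higher (5.71%). All tested genes gave 6.95% lower and 6.23% higher. Of the 8306 other genes with a mean of at least 6, 633 were lower and 559 higher. When the neutrophil score was a covariate, the lower count was 6 (4.29%, against 3.32% of all genes). It was 9 with the oligodendrocyte and astrocyte score (6.43%, against 3.5%). The median SE over the 140 genes rose from 0.0936 to 0.131 and 0.118 with these scores. A larger SE lowers such counts by itself, so they do not show whether the differences shrank. Positive differences numbered 61 (43.6%, against 46.3% of all genes) and 60 (42.9%, against 47%). Leaving out KO mouse 1 gave 13 lower genes and leaving out KO mouse 2 gave 13 as well, and leaving out any other mouse gave 15 to 26, the most for KO mouse 3. The genes higher in CV numbered 4 when KO mouse 2 was left out, 5 for KO mouse 3 and 4 for CV mouse 1. All CV mice lay below all KO mice for 18 genes, against 8.05% of all genes, and above them for 6, against 5.9%. Of the 8306 other genes at the same level, 736 lay below and 527 above. Of the 140 genes 56 (40%) had a positive difference, against 45% of all genes. R47H minus CV had 14 genes higher and 7 lower at an unadjusted p under 0.05, or 10% and 5%, against 7.13% and 5.24% of all genes. Of the 8306 other genes at the same level, 637 were higher and 450 lower. The R47H mice lay above the CV mice for 17 of the 140 genes (8.74% of all genes, and 789 of the 8306). They lay below them for 11 (6.17%, and 534 of the 8306). Among the 140 genes the counts at an unadjusted p under 0.05 were 5 higher and 1 lower with the neutrophil score. With the oligodendrocyte and astrocyte score they were 1 higher and 5 lower, which turned the balance. They were 20 higher and 5 lower with centred arrays, 8 and 5 without CV mouse 3, and 10 and 4 without R47H mouse 1. All R47H mice lay above all KO mice for 5 genes, against 3.84% of all genes, and below them for 9, against 3.27%. The R47H mean lay between the other group means for 68 of the 140 genes (48.6%), where 39.7% of all tested genes did so, and the CV mean was the lowest for 64 (45.7%, against 41.6%). No test of these shares was made.

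**Figure D2:**
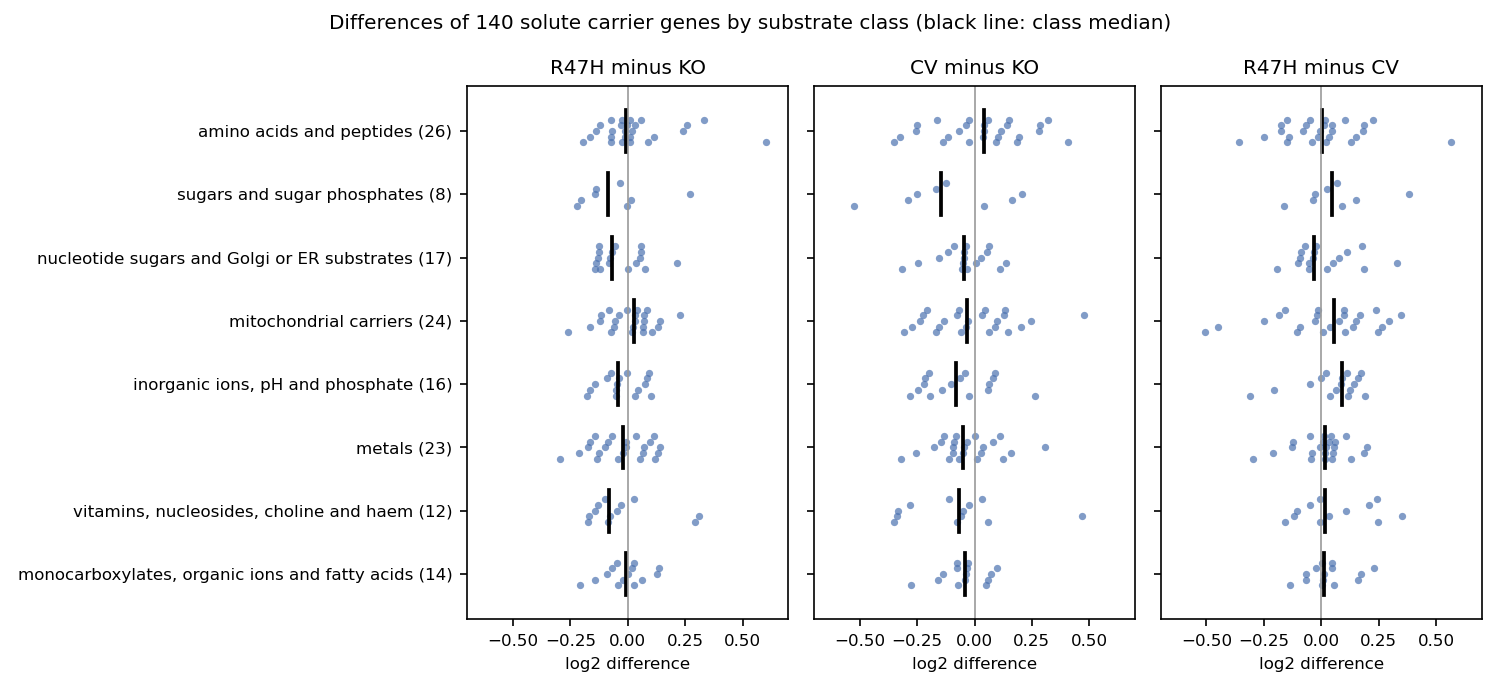
Log2 difference of each of the 140 genes (points) in R47H minus KO, CV minus KO and R47H minus CV, by substrate class, with the number of genes in brackets and a black line at the class median. Class medians lie between -0.15 and 0.09, and single genes reach 0.60 (Slc6a9 in R47H minus KO) and -0.53 (Slc2a5 in CV minus KO).

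Among the 26 amino acid and peptide genes, 0 were called in any comparison, and the class median was -0.0066 in R47H minus KO, 0.04 in CV minus KO and 0.0044 in R47H minus CV. Slc6a9, the glycine transporter GlyT1, had the largest difference of all 140 genes. It lay at 6.65, 6.51 and 6.66 in R47H mice, 5.79, 6.15 and 6.20 in CV mice, and 5.90, 6.22 and 5.89 in KO mice. All R47H mice stood above all other mice, while CV and KO overlapped. R47H minus KO was 0.60 ± 0.12 (1.52-fold, limma adjusted p = 0.144) and R47H minus CV 0.56 ± 0.12 (adjusted p = 0.0867), neither past the threshold. GlyT1 is known from glia other than microglia, and the oligodendrocyte and astrocyte scores were highest in the same 3 mice: with their mean as a covariate the differences were 0.25 in R47H minus KO and 0.08 in R47H minus CV. That score separates R47H from the other groups and raises the median SE to 0.296 in R47H minus CV, so genotype and the share of other glia cannot be told apart here. CV minus KO was 0.04 with all mice, -0.05 without KO mouse 3 and -0.02 without CV mouse 3.

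Carriers of neutral and basic amino acids lay on both sides. Slc66a1, which exports basic amino acids from lysosomes, stood at 6.45 in all 3 R47H mice, at 6.29, 6.35 and 6.16 in CV mice, and at 6.55, 6.78 and 6.53 in KO mice. The groups did not overlap, and CV minus KO was -0.35 ± 0.09 (limma adjusted p = 0.123). Slc43a2, which carries branched-chain and aromatic amino acids, stood at 7.59, 7.60 and 7.51 in CV mice and at 8.16, 7.77 and 7.73 in KO mice. All CV mice were lower, by a difference of -0.32 ± 0.09 (adjusted p = 0.141), with KO mouse 1 the highest. Slc43a3, a carrier of purine bases placed here by its family, lay 0.33 ± 0.11 above KO in R47H and 0.32 ± 0.11 above it in CV, with all 6 mice above the KO mice (adjusted p = 0.686 and 0.271). Slc7a6, a partner of Slc3a2 that exchanges basic for neutral amino acids, was lower in R47H than in CV by a difference of -0.17 ± 0.09 (adjusted p = 0.488). The lysosomal peptide carrier Slc15a3 stood at 10.94 ± 0.05 in R47H, 11.12 ± 0.16 in CV and 10.93 ± 0.03 in KO mice (SD, n = 3 each).

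The 8 sugar carriers had medians of -0.09 in R47H minus KO, -0.15 in CV minus KO and 0.05 in R47H minus CV, and 0 were called. Slc2a5, the fructose transporter GLUT5, stood at 9.71, 10.05 and 9.91 in R47H mice, 9.56, 9.69 and 9.27 in CV mice, and 9.82, 10.05 and 10.22 in KO mice. Every CV mouse lay below every other mouse, and R47H and KO overlapped. CV minus KO was -0.53 ± 0.13, a 1.44-fold lower level (limma adjusted p = 0.113), R47H minus CV was 0.38 ± 0.13 (adjusted p = 0.281) and R47H minus KO was -0.14 ± 0.13 (adjusted p = 0.950). With the neutrophil score as a covariate CV minus KO was -0.66 (adjusted p = 0.321). With the oligodendrocyte and astrocyte score it was -0.60 (adjusted p = 0.328). The urate and sugar carrier Slc2a9 was at -0.22 ± 0.09 in R47H minus KO and -0.25 ± 0.09 in CV minus KO. Slc37a1, a glucose-6-phosphate exchanger, lay below KO in all R47H and all CV mice, by -0.20 ± 0.09 and -0.17 ± 0.09. Slc45a4, described as a proton-coupled sugar carrier, was instead higher in all CV mice than in any other mouse, at 7.57, 7.53 and 7.54, against 7.43, 7.29 and 7.43 in R47H and 7.41, 7.43 and 7.32 in KO mice. That difference was 0.16 ± 0.07 in CV minus KO (adjusted p = 0.354).

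**Figure D3:**
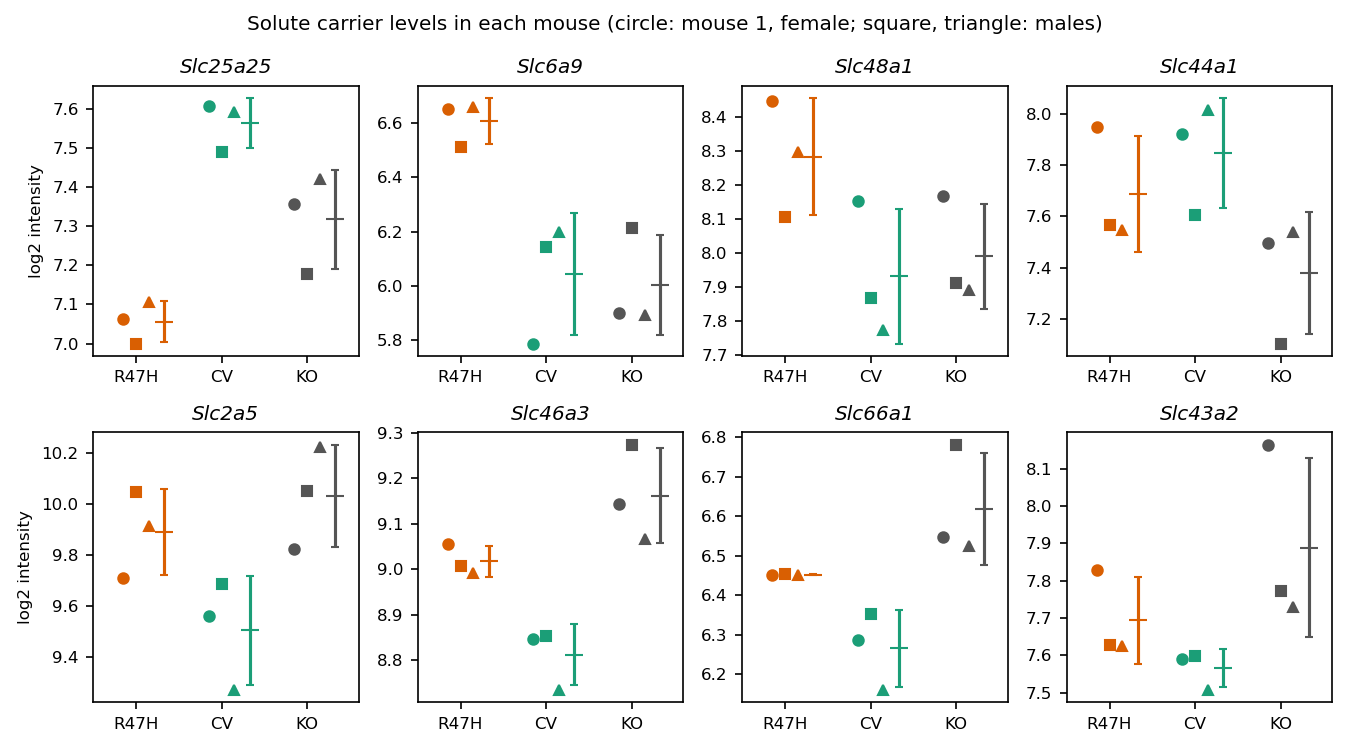
Log2 level (vertical axis, each panel on its own range) of 8 solute carrier genes in each R47H, CV and KO mouse (circle: mouse 1, female, square and triangle: males), with the group mean and SD beside the points. Slc25a25 separates all 3 groups, Slc6a9 is high in R47H mice, and Slc2a5, Slc46a3, Slc66a1 and Slc43a2 are low in CV mice.

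The 17 genes for nucleotide sugars and other substrates of the Golgi and endoplasmic reticulum feed glycosylation, and 0 were called. Their medians were -0.07 in R47H minus KO, -0.05 in CV minus KO and -0.03 in R47H minus CV, the 1 class below 0 in the last. Slc35c2, a Golgi protein tied to fucose addition, stood at 8.86, 8.80 and 8.54 in CV mice and 8.95, 9.14 and 9.05 in KO mice, without overlap, a difference of -0.31 ± 0.10 (adjusted p = 0.220). The orphan Slc35a4 was higher in R47H than in CV by 0.33 ± 0.12 (adjusted p = 0.30), and the R47H and CV mice did not overlap. Its other probe set gave 0.28. Slc35b4, which carries UDP-xylose and UDP-N-acetylglucosamine, had a CV minus KO difference of -0.25 ± 0.08, and the UDP-glucuronic acid carrier Slc35d1 an R47H minus CV difference of -0.19 ± 0.18, with KO mouse 2 at 5.81 and KO mice 1 and 3 at 6.46 and 6.51.

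The 24 genes of the Slc25 family were classed as mitochondrial carriers by family name, and the place of each product in the cell was not checked. They included the 1 called gene, Slc25a25, and had medians of 0.03 in R47H minus KO, -0.03 in CV minus KO and 0.06 in R47H minus CV. The adenine nucleotide exchangers, which pass ADP and ATP across the inner membrane, differed in where R47H stood, and CV lay below KO in both means. Slc25a4 stood at 9.42, 9.32 and 9.39 in R47H mice, 9.26, 9.12 and 9.02 in CV mice, and 9.36, 9.31 and 9.24 in KO mice. All R47H mice were above all CV mice, by 0.24 ± 0.07 (adjusted p = 0.207). Slc25a5 stood at 10.67, 10.75 and 10.76 in R47H mice, 10.90, 10.82 and 10.77 in CV mice, and 10.93, 10.91 and 10.82 in KO mice. The R47H mice were the lowest, by -0.16 ± 0.07 against KO (adjusted p = 0.863) and -0.11 ± 0.07 against CV (adjusted p = 0.598). Its other probe sets gave R47H minus KO differences of -0.13 and -0.13. Slc25a4 and Slc25a5 are close paralogs, and cross-hybridisation between them was not checked.

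Other mitochondrial carriers with R47H and CV mice apart lay on both sides, none called but Slc25a25. Slc25a1, which exports citrate for lipid synthesis, stood at 8.51, 8.32 and 8.40 in R47H mice and 8.25, 7.93 and 8.01 in CV mice, with no overlap (0.35 ± 0.12, adjusted p = 0.284). The glutathione carrier Slc25a39 differed by 0.30 ± 0.14 (adjusted p = 0.425). With the oligodendrocyte and astrocyte score as a covariate both signs turned, to -0.02 for Slc25a1 and -0.75 for Slc25a39. The pyrimidine nucleotide carriers Slc25a33 and Slc25a36 were at -0.45 ± 0.17 (adjusted p = 0.320) and -0.18 ± 0.08 (adjusted p = 0.417), with all R47H mice below all CV mice for both. A further probe set of Slc25a36 gave -0.12. Slc25a33 ranged widely within a group, at 5.92 to 6.39 in R47H, 6.40 to 6.86 in CV and 5.83 to 6.46 in KO mice. Slc25a45 was at -0.25 ± 0.07 in R47H minus CV (adjusted p = 0.221). Slc25a38, which supplies glycine for haem synthesis, was at 0.23 ± 0.09 in R47H minus KO, with all R47H mice above the KO mice (adjusted p = 0.791).

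Of the 16 genes for inorganic ions 0 were called, and 11 had a negative difference in CV minus KO (median -0.08), 10 in R47H minus KO (median -0.04) and 4 in R47H minus CV (median 0.09). Slc9a9, a sodium-proton exchanger of endosomes, stood at 9.66, 9.70 and 9.75 in R47H mice, 9.56, 9.61 and 9.58 in CV mice, and 9.79, 9.89 and 9.70 in KO mice. The CV mice were the lowest, with a CV minus KO difference of -0.21 ± 0.07 (adjusted p = 0.248). The anion exchanger Slc4a2 was at -0.24 ± 0.08 and the sodium-calcium exchanger Slc8a1 at -0.22 ± 0.11 in the same comparison. A further probe set of Slc8a1, with a low mean of 4.63, gave -0.63 in CV minus KO. Slc20a1, a phosphate importer, was instead at 0.26 ± 0.12 (adjusted p = 0.405), with CV mouse 3 at 8.20 and the other CV mice at 7.70 and 7.75.

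Of the 23 carriers of zinc, copper, magnesium and other metals 0 were called, and the class medians were -0.02 in R47H minus KO, -0.05 in CV minus KO and 0.02 in R47H minus CV. The zinc importer Slc39a1 stood at 8.79, 8.75 and 8.71 in R47H mice and 8.93, 8.85 and 9.12 in KO mice, without overlap. The difference was -0.21 ± 0.09 (adjusted p = 0.863), and its other probe set gave -0.10. The zinc importer Slc39a3 was at -0.26 ± 0.08 and Slc39a4 at 0.31 ± 0.11 in CV minus KO, and the zinc exporter of the secretory pathway Slc30a5 at 0.16 ± 0.09. Slc31a2, which acts in copper transport, was at 0.13 ± 0.09 in R47H minus KO, and the magnesium carrier Slc41a3 at 0.20 ± 0.08 in R47H minus CV. The zinc exporter Slc30a4, named after its values were seen, had the lowest R47H minus KO difference of the 140 genes, -0.30 ± 0.13, with R47H mouse 3 at 6.03 and R47H mice 1 and 2 at 6.63 and 6.52.

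The class of vitamins, nucleosides, choline and haem had 0 called of 12, and medians of -0.08 in R47H minus KO, -0.07 in CV minus KO and 0.01 in R47H minus CV. Slc46a3, a lysosomal carrier, stood at 9.06, 9.01 and 8.99 in R47H mice, 8.85, 8.85 and 8.73 in CV mice, and 9.14, 9.27 and 9.07 in KO mice. The groups were fully apart, with R47H between the others. CV minus KO was -0.35 ± 0.08, a 1.27-fold lower level and the smallest p of the 140 genes in that comparison (adjusted p = 0.0799). It was -0.26 with the neutrophil score as a covariate (limma adjusted p = 0.653). With the oligodendrocyte and astrocyte score it was -0.28 (adjusted p = 0.444). The proton-coupled folate carrier Slc46a1, a relative of Slc46a3, was at -0.34 ± 0.14 in CV minus KO (adjusted p = 0.335). Slc49a4 was at -0.28 ± 0.14 (adjusted p = 0.438), and both had all CV mice below all KO mice.

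The 2 choline carriers with groups apart differed in direction. Slc44a2 lay at 9.50, 9.25 and 9.13 in CV mice and 9.65, 9.54 and 9.69 in KO mice, a difference of -0.33 ± 0.10 (adjusted p = 0.209), while Slc44a1 lay at 7.92, 7.60 and 8.02 in CV mice and 7.50, 7.10 and 7.54 in KO mice, a difference of 0.47 ± 0.14 (adjusted p = 0.198). Both carry choline, and CV and KO mice did not overlap for either. A further probe set of Slc44a1 gave 0.18 in CV minus KO, and its R47H minus CV value was 0.15 where the first gave -0.16. The probe sets thus disagreed in size and in that sign. All R47H mice also lay above all KO mice for Slc44a1, by 0.31 ± 0.14 (limma adjusted p = 0.870), and the further probe set gave 0.33 there. Slc48a1, which moves haem out of lysosomes, stood at 8.45, 8.11 and 8.30 in R47H mice, 8.15, 7.87 and 7.77 in CV mice, and 8.17, 7.91 and 7.89 in KO mice. In each group the female, mouse 1, was the highest, so groups overlapped although the model, which has a term for sex, gave 0.35 ± 0.07 in R47H minus CV (adjusted p = 0.0874) and 0.29 ± 0.07 in R47H minus KO (adjusted p = 0.370). The nucleoside carrier Slc29a3 of lysosomes was at -0.13 ± 0.08 in R47H minus KO.

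The 14 genes for monocarboxylates, organic ions and fatty acids had 0 calls and medians of -0.0090, -0.04 and 0.01 in R47H minus KO, CV minus KO and R47H minus CV. Slc16a6, a monocarboxylate carrier known for ketone body export in liver, stood at 8.96, 8.74 and 8.91 in R47H mice and 9.16, 8.9992 and 9.09 in KO mice, without overlap (-0.21 ± 0.09, adjusted p = 0.861). Slc13a3, a sodium-coupled carrier of dicarboxylates, was at -0.28 ± 0.07 in CV minus KO (adjusted p = 0.143) and 0.23 ± 0.07 in R47H minus CV (adjusted p = 0.270), with overlap in both. Slc22a13 and Slc22a13b are close paralogs that may share signal.

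**Figure D4:**
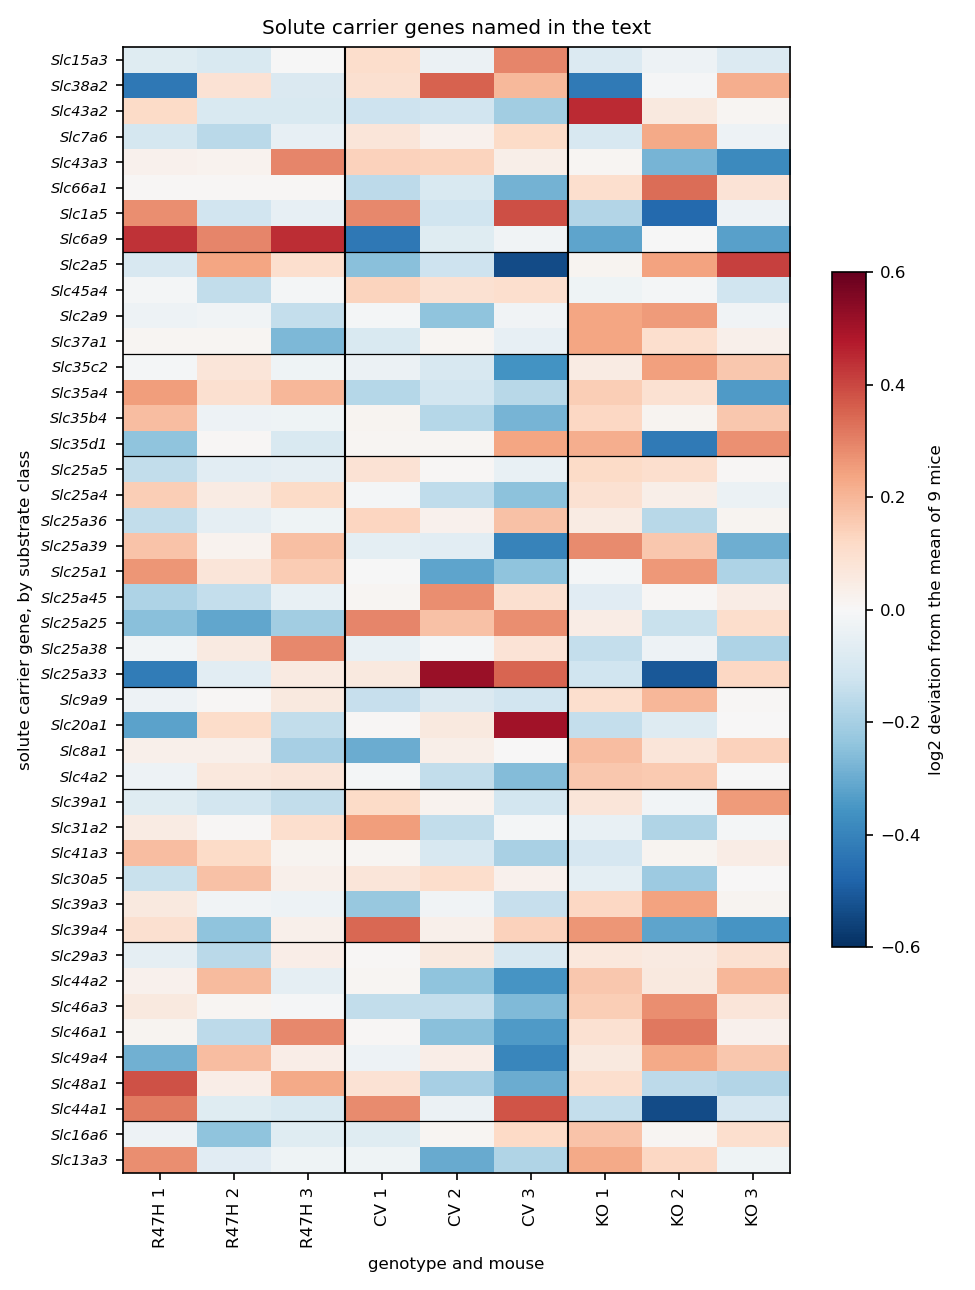
Log2 deviation of each named gene from its mean over 9 mice (colour, from -0.6 in blue to 0.6 in red) in R47H, CV and KO mice (columns), with genes in rows and lines between substrate classes. The Slc25a25 row is blue in all R47H mice and red in all CV mice, and the Slc6a9 row is red in all R47H mice.

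Lists of lysosomal carriers and of carriers that the stress factor ATF4 is known to induce were read beside the classes. All 10 lysosomal carriers were among the 140 genes, and 0 were called. Their medians were -0.02 in R47H minus KO, -0.05 in CV minus KO and 0.02 in R47H minus CV, close to those of the 140 genes. Slc46a3 and Slc66a1 were lower in CV than in KO by similar amounts, and Slc48a1 was at -0.06 ± 0.07 there. CACGTG is the core of the element that lysosomal regulators of the TFE family bind. It was found on either strand before 2 of the 8 lysosomal genes with a window, Slc36a1 and Slc38a7. It stood in 16 of 147 windows (10.9%) of the 140 genes, against 6.02% of all windows. The 140 genes were chosen by level and the genes of all windows were not, so the shares are of unlike sets.

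Of 9 ATF4-induced amino acid carriers 7 were tested, 6 of them among the 140 genes, and 0 were called. The median of the 7 was 0.03 in R47H minus KO, 0.28 in CV minus KO and -0.15 in R47H minus CV, against -0.0011, -0.016 and 0.010 over all tested genes. Over the 6 that belong to the 140, without Slc7a11, it was -0.02 in R47H minus KO, 0.16 in CV minus KO and -0.10 in R47H minus CV. Slc38a2, a sodium-coupled carrier of small neutral amino acids, stood at 9.69, 10.20 and 10.03 in R47H mice, 10.21, 10.47 and 10.31 in CV mice, and 9.69, 10.11 and 10.33 in KO mice. All CV mice were above all R47H mice (R47H minus CV -0.36 ± 0.10, adjusted p = 0.221), and CV and KO overlapped through KO mouse 3 (CV minus KO 0.28 ± 0.10, adjusted p = 0.285). The glutamine carrier Slc1a5 was at 0.41 ± 0.15 in CV minus KO (adjusted p = 0.289) and 0.26 ± 0.15 in R47H minus KO (adjusted p = 0.907). Slc7a11, the cystine importer, whose mean of 5.65 was too low for the set, stood at 5.27, 5.78 and 5.74 in R47H mice, 5.74, 6.07 and 5.97 in CV mice, and 5.01, 5.45 and 5.82 in KO mice. Its CV minus KO difference was 0.50 ± 0.11 (adjusted p = 0.0872), with KO mouse 3 inside the CV range. The exchanger chains Slc7a5 and Slc3a2 of the same list, named after their values were seen, were at -0.03 ± 0.13 and -0.14 ± 0.09 in CV minus KO. KO mouse 3 also had the highest neutrophil score of its group, and with that score as a covariate the CV minus KO difference of Slc38a2 was 0.13. The part of those cells in the Slc7a11 values was not tested. The amino acid response element TGATGCAA was found on either strand in 2 of 147 windows (1.36%), of Slc50a1 and Slc7a7, against 0.791% of all windows, and also before Slc7a11.

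**Figure D5:**
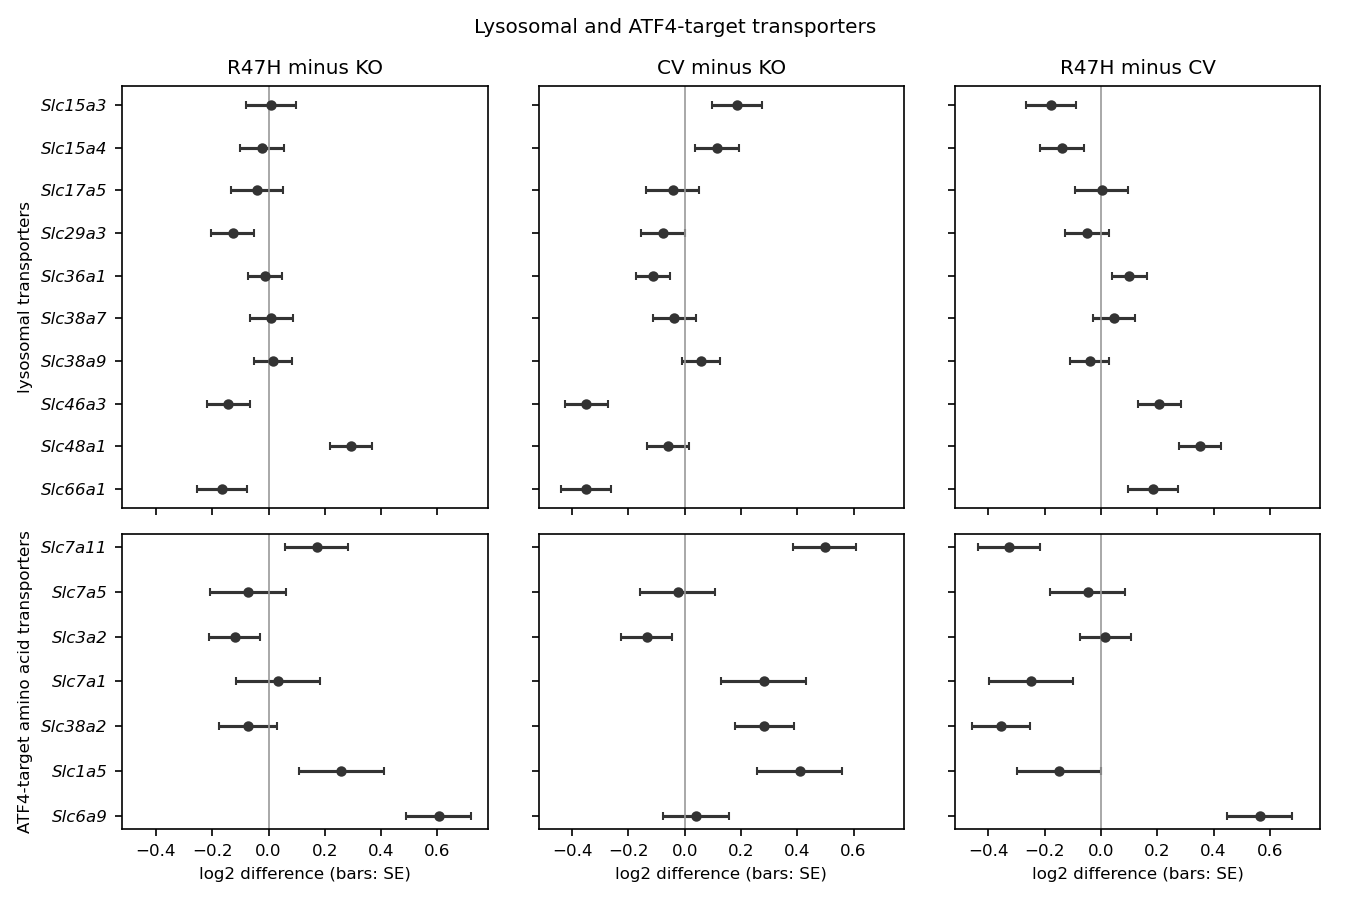
Log2 difference (horizontal axis, bars: SE) of the 10 lysosomal carriers (upper row) and the 7 tested ATF4-induced amino acid carriers (lower row) in R47H minus KO, CV minus KO and R47H minus CV. Slc46a3 and Slc66a1 lie at -0.35 in CV minus KO, and Slc48a1 and Slc6a9 lie to the right in both comparisons of R47H.

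Of 20 solute carriers known mainly from astrocytes, neurons or vessels 18 had a probe set, 4 were tested and 3 were among the 140 genes. Slc13a3 was the only one of these 3 past an unadjusted p of 0.05. The other tested gene, Slc15a2, had a CV minus KO difference of 0.68 ± 0.15 and is described under other observations. The rest with a probe set lay below the level for testing, so whether they differed was not tested. Spread within the groups was ordinary, with a median SD of 0.125 over the 140 genes and 0.123 over all tested genes. With 3 mice a group, the array number limits what could be called: the median SE of a difference was 0.09.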

How the data were processed

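Expression was measured on 1 Affymetrix Gene ST array per mouse, from 2 ng of total RNA per the labels' protocols. The table deposited by the authors holds 1 log2 value per probe set and array (35556 probe sets, values 1.31 to 13.9). The scale was read from the values, and background correction, normalization and probe summary are not given in the labels. Probe sets were named by the platform annotation, 21789 with 1 symbol. Genes with a mean at or above the median probe set mean (5.31) were tested, 10795 of 19938.

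The deposited log2 values were used as they stand. The lmFit and eBayes functions of limma 3.58.1 (R 4.3.3) were run on all 9 arrays with terms for genotype and sex (5 residual and 3.73 prior degrees of freedom), with two-sided tests, and calls were made at 0.05 after Benjamini-Hochberg adjustment over all tested genes. Group means carry the SD over 3 mice and differences the SE of the model. The script was tested on simulated data. An exact permutation test of 3 against 3 cannot go below p = 0.1, so none is given. Nothing but the mouse number and label says that mice were raised apart. The p-values take the mice as independent and set each difference against the residual spread between these mice, moderated across genes.

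The 140 genes, the classes, lists, motifs and naming rule were chosen with earlier results of these data known. Named were the called genes, up to 8 largest differences each way per comparison among genes whose groups did not overlap, the 2 smallest F-test p and the highest mean per class, and the 2 smallest p of each short list. Same-numbered mice had deviations that correlated at 0.196 to 0.327 between R47H and CV, but at 0.000942 to 0.362 between R47H and KO and -0.0401 to 0.319 between CV and KO, with mouse 1 the female throughout. Mice of unlike number correlated at -0.193 to -0.0017, -0.331 to 0.203 and -0.392 to 0.214 in the same order. Between R47H and CV every same-numbered pair thus lay above every other pair. Alternatives were the sex term, the arrays in the fit, eBayes options, filter, probe sets, array scaling, the mouse number as a block, marker scores as covariates, and each array left out. Promoter windows came from RefSeq for GRCm38.p6.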

Additional observations from a re-analysis of the deposited data

How the results depend on the processing

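In every alternative limma called 0 of the 140 genes in R47H minus KO and in CV minus KO. The Slc25a25 call in R47H minus CV (count 1) held with the replicate block in place of sex (adjusted p = 0.0241), with either array scaling, without the sex term, with other eBayes options, with every probe set and with the compared groups alone. The count was 0 with no filter (adjusted p = 0.0572), with the neutrophil score (-0.371, adjusted p = 0.607), with the oligodendrocyte and astrocyte score (-0.209, adjusted p = 1), and 0 to 1 without 1 mouse. Its F-test call (1) was lost (0) in the same settings, with centred arrays and with every probe set, and ran from 0 to 1 without 1 mouse. The cause was not tested. The replicate block changed no other call.

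Over all genes R47H minus KO had 3 calls without sex, 1 in the 2 groups alone, 15 with trend and robust options, 15 with the neutrophil score, 0 with the oligodendrocyte and astrocyte score (565 at an unadjusted p under 0.05, limma), and 0 to 7 without 1 mouse. CV minus KO had 77 without sex, 54 in the 2 groups alone, 22 with the neutrophil score, 27 with the other score, and 59 to 172 without 1 mouse. R47H minus CV had 48 with no filter, 9 with the neutrophil score, 0 with the other (450 at an unadjusted p under 0.05, limma), and 9 to 132 without 1 mouse. The F-test had 85 without sex, 37 with the neutrophil score, 58 with the other, and 35 to 163 without 1 mouse.

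The median over the 140 genes was -0.0837, -0.0176 and -0.079 in R47H minus KO, CV minus KO and R47H minus CV with the oligodendrocyte and astrocyte score, and -0.0677 in CV minus KO and 0.0524 in R47H minus CV with centred arrays. In R47H minus CV it was 0.0127 to 0.045 without 1 mouse. Classes with a median below 0 in R47H minus CV numbered 1, and 3 with the neutrophil score, 7 with the oligodendrocyte and astrocyte score, 2 at a level of 7 or of the probe set median, and 0 to 3 without 1 mouse. Signs turned with the oligodendrocyte and astrocyte score in R47H minus KO for Slc43a3 (-0.152), Slc25a38 (-0.0401), Slc39a1 (0.115) and Slc2a5 (0.0628), and in R47H minus CV for Slc25a1 (-0.0181), Slc35a4 (-0.521), Slc25a39 (-0.748), Slc46a3 (-0.0465), Slc38a2 (0.14) and Slc35d1 (0.516). Slc35d1 was 0.0843 with the neutrophil score, and Slc6a9 in CV minus KO ran from -0.0473 (without KO mouse 3) to 0.155 without 1 mouse, and was -0.0154 without CV mouse 3. The median SE of R47H minus CV was 0.0936, 0.133 with the neutrophil score and 0.296 with the other, because the scores differ between genotypes.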

Other observations

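Slc15a2, a peptide carrier known mainly from astrocytes and other non-microglial cells of the brain, did not reach the level that defines the set (mean 5.77) but had a larger CV minus KO difference than any of the 140 genes. It stood at 5.61, 5.80 and 5.80 in R47H mice, 6.31, 5.93 and 6.12 in CV mice, and 5.10, 5.57 and 5.66 in KO mice. All CV mice lay above all other mice. CV minus KO was 0.68 ± 0.15 (limma adjusted p = 0.0776) and R47H minus KO 0.29 ± 0.15 (adjusted p = 0.907). The gene was chosen after its values were seen.

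Some deposited values repeat to the last digit between arrays. Such a repeat was found in 60 of the 140 genes (42.9%) and in 52.5% of all tested genes. The 3 R47H values of Slc66a1, 2 of them the same, are an example, with an SD of 0.0018. How such repeats arose was not tested.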
